A study of Homo sapiens with 4 samples.

Results

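The genes described here are 43 human genes of DNA replication and mitosis, chosen by name from textbook membership of the replication machinery, the cell cycle kinases and the mitotic apparatus, out of 20136 protein-coding genes of the annotation. By role they were 10 origin licensing genes, 6 helicase activation genes, 5 genes of the sliding clamp and its loader, 4 polymerase and primase genes, 4 genes of deoxynucleotide supply, 6 cyclins and cyclin-dependent kinases, 2 E2F factors and 6 mitosis genes. The rule itself used no measured value. The other 20093 protein-coding genes served as the comparison.

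Open chromatin was mapped by ATAC-seq, which lets the Tn5 enzyme insert sequencing adapters where DNA is exposed. The cells were HL-60, an established human leukemia line that all-trans retinoic acid (ATRA) drives toward granulocytes. Cells received 1 µM ATRA in ethanol for 4 days (ATRA-treated cells) or the same volume of ethanol for the same time (control cells), and medium and agent were renewed midway. Each group had 2 replicates, which the study describes as independent biological replicates, and all 4 libraries came from this 1 line. The question was whether the promoters of these genes close as the cells mature and leave the cycle. Cell division itself was not measured in these files, and a peak list from a bulk culture cannot tell fewer cells with an open site from a site that is less open in each cell.

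The lists held 42081 and 45903 peaks in control replicates 1 and 2, and 43494 and 63541 in ATRA replicates 1 and 2. The list of ATRA replicate 2 was the longest and its peaks were the widest, with a median of 416 bp against 291 to 328 bp in the other lists. Sequencing depth is unknown because the lists give no read counts, so its part in the results below was not tested. Of 8 promyelocyte and myeloid markers, 4 (CTSG, CEBPE, SPI1 and CD33) had a promoter peak in every library, ELANE and AZU1 had none, and MPO and PRTN3 had one in some libraries, so granule genes were found in each of these states. Among markers of other cell types, the T cell gene CD3E, the epithelial gene EPCAM and the liver gene ALB had no promoter peak, and the collagen gene COL1A1 had one in every library. Among markers of the ATRA response and maturation, ITGAM had a promoter peak in every library, and CD38, TGM2 and CYP26A1 had none. Within each list, where a percentile of 100 is the highest score, the integrin gene ITGAM stood at 58.2 and 32.9 in the control lists and 79.8 and 87.9 in the ATRA lists.

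Before a cell can copy its genome, the origin recognition complex, CDC6 and CDT1 load the MCM2 to MCM7 helicase onto origins in the gap phase before replication. CDC45 and the GINS complex then turn the helicase on, and polymerases held by the PCNA clamp copy the strands. In cycling cells E2F factors drive the genes of replication through E2F sites in their promoters. Genes of mitosis are expressed later, through CCAAT boxes bound by NF-Y and a cell cycle homology region (CHR) bound by the MuvB complex. When cells stop dividing, pocket proteins and the DREAM complex occupy the same promoters and repress them.

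The promoter sequences show these elements. The 120 bases just upstream of the canonical transcription start site (TSS) are given for 11 members in GRCh37 (hg19), 5′ to 3′ on the gene's own strand. Capitals mark E2F sites (TTTCCCGC, TTTCGCGC, TTTGCCGC or TTTGGCGC), the CHR (TTTGAA) and CCAAT boxes (CCAAT), on either strand, so that ATTGG is a CCAAT box read from the opposite strand. Matches may share letters, as at the second CHR of MKI67. The first 5 sequences belong to genes of replication and to E2F1 itself, shown for their E2F letters, which all but PCNA hold in this stretch, and because POLA2, TYMS and CDT1 lacked a promoter peak in at least 1 library.

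E2F1 promoter, chr20:32274192-32274311, minus strand: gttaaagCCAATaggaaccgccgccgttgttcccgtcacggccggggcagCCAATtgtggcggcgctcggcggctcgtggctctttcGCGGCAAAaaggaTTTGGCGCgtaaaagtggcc
POLA2 promoter, chr11:65029313-65029432, plus strand: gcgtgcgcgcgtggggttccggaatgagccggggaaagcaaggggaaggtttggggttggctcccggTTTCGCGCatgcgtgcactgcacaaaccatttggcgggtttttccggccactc
TYMS promoter, chr18:657533-657652, plus strand: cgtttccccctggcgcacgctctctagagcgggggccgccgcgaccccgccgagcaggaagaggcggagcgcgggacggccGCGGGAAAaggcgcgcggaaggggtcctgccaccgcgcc
CDT1 promoter, chr16:88870077-88870196, plus strand: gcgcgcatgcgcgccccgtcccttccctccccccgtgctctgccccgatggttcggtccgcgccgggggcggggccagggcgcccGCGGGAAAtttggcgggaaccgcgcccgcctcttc
PCNA promoter, chr20:5100605-5100724, minus strand: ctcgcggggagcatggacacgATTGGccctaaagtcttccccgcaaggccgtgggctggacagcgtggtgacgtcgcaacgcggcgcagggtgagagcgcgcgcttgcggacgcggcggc

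The remaining sequences belong to RRM2, to the kinases and the cyclin of mitotic entry and to the proliferation marker MKI67, shown for their CCAAT boxes, which all 6 hold, and for the CHR letters of CDK1, PLK1, AURKB and MKI67, and because RRM2, CCNB1, CDK1 and AURKB are taken up again with their peaks.

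RRM2 promoter, chr2:10262746-10262865, plus strand: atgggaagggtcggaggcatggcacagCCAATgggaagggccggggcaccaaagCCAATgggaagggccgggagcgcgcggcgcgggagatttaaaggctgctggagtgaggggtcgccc
CCNB1 promoter, chr5:68462857-68462976, plus strand: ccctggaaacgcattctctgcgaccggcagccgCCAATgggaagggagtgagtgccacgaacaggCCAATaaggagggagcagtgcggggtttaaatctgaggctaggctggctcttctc
CDK1 promoter, chr10:62538116-62538235, plus strand: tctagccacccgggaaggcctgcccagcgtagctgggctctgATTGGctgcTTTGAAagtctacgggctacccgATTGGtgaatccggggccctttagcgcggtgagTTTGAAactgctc
PLK1 promoter, chr16:23690090-23690209, plus strand: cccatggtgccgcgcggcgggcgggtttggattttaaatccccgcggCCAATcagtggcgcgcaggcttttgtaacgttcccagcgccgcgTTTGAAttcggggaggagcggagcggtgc
AURKB promoter, chr17:8113894-8114013, minus strand: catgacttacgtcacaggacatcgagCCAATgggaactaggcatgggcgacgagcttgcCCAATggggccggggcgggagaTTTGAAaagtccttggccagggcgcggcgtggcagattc
MKI67 promoter, chr10:129924688-129924807, minus strand: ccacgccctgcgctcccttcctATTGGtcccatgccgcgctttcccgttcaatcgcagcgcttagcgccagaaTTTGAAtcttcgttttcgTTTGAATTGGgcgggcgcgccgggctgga

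Motifs were counted over all members in RefSeq promoter windows, which run from 250 bases before to 50 after the gene's start in GRCh38.p14. Of the 43 members, 37 had such a window (MCM4, MCM5, GINS4, CCNE2, CDK2 and AURKA had none in the table), as did 15281 other genes. The RefSeq start can differ from the canonical TSS, so CDK1, PCNA and AURKB show different letters in the window and in the printed sequence. An E2F site was present in 18 of the 37 members (48.6%) and in 4.38% of the other promoters, and in 5.83% of those of other genes with a promoter peak in all 4 libraries. Replication machinery genes held most of them, with 15 of 26 (57.7%), whereas CHR letters were in 1 of these 26. Among 8 promoters of mitosis genes, CCNA2, CCNB1 and CDK1, an E2F site was present in 1 and a CHR in 4 (CDK1, PLK1, TOP2A and MKI67), and all 8 had a CCAAT box. Over all 37 members a CHR was in 13.5%, beside 12.1% of the other promoters, and a CCAAT box in 67.6%, beside 36.6%. The GC box GGGCGG was in 73.0% of the members, in 59.2% of the other promoters and in 70.5% of those of other genes with a promoter peak in all 4 libraries. By the same matched comparison the shares of other genes were 10.3% for the CHR and 41.7% for the CCAAT box. The median GC content of that matched set was 64.7%, beside 64.0% in the members and 63.0% in all other promoters. In the 200 bp about the promoter peak centre of control replicate 1, which was read for 39 members, an E2F site was present in 9 (23.1%) and in 3.9% of 9899 other genes, so the share depends on the window. A match is a stretch of letters and does not show that a factor was bound.

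**Figure D1:**
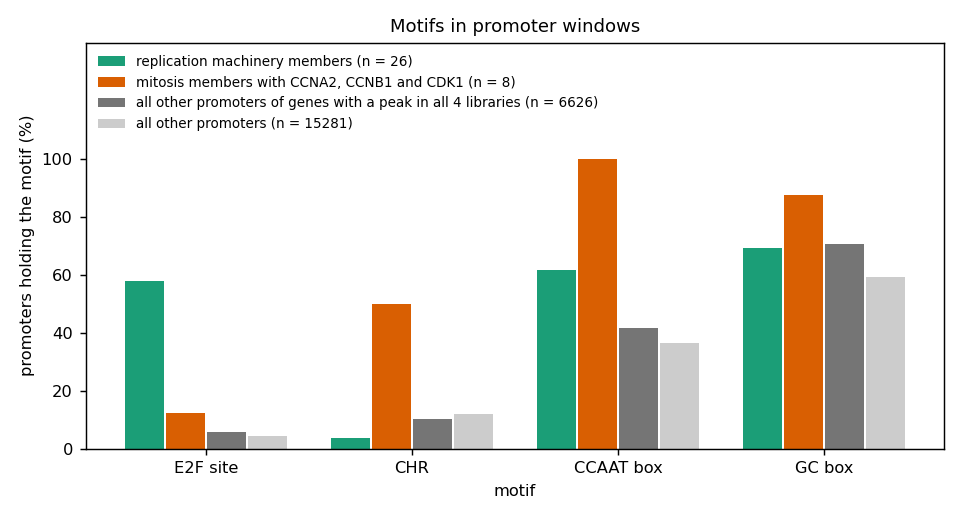
Share of RefSeq promoter windows (y axis, percent) that hold each of 4 motifs (x axis), for 26 replication machinery members, 8 mitosis promoters with CCNA2, CCNB1 and CDK1, and other promoters with and without the requirement of a peak in all 4 libraries. E2F sites stand at 57.7% in the replication machinery and 4.38% in all other promoters, and CHR letters at 50.0% in the mitosis group and 3.85% in the replication machinery.

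A promoter peak was a peak whose centre lay from 1 kb upstream to 100 bp downstream of any annotated TSS of the gene. Of the 43 members, 33 (76.7%) had a promoter peak in all 4 libraries, beside 40.2% of the other protein-coding genes. No member had a promoter peak in both control libraries and neither ATRA library, the pattern that a closing promoter would give, and 0.632% of the other genes had it. The reverse pattern, a peak in both ATRA libraries and neither control library, was found for 0 members and 2.23% of the other genes. The remaining members were 8 with a peak in some libraries and 2, TYMS and E2F2, with none.

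Both counts of 0 have to be read against these low background shares. Of genes with a peak in both control libraries, 0 of 35 members and 127 of 8668 other genes (1.47%) lacked one in both ATRA libraries. At that share 0.513 of the 35 members would be without one, and a count of 0 of 35 allows a share of up to 8.57%, so closing at a rate like that of other genes was not detectable with so few genes. By library, 39 and 35 members had a promoter peak in control replicates 1 and 2, and 39 and 39 in ATRA replicates 1 and 2. The lower count belonged to a control library, control replicate 2, in which 46.3% of the other genes had a promoter peak against 49.3% to 52.6% in the other libraries.

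**Figure D2:**
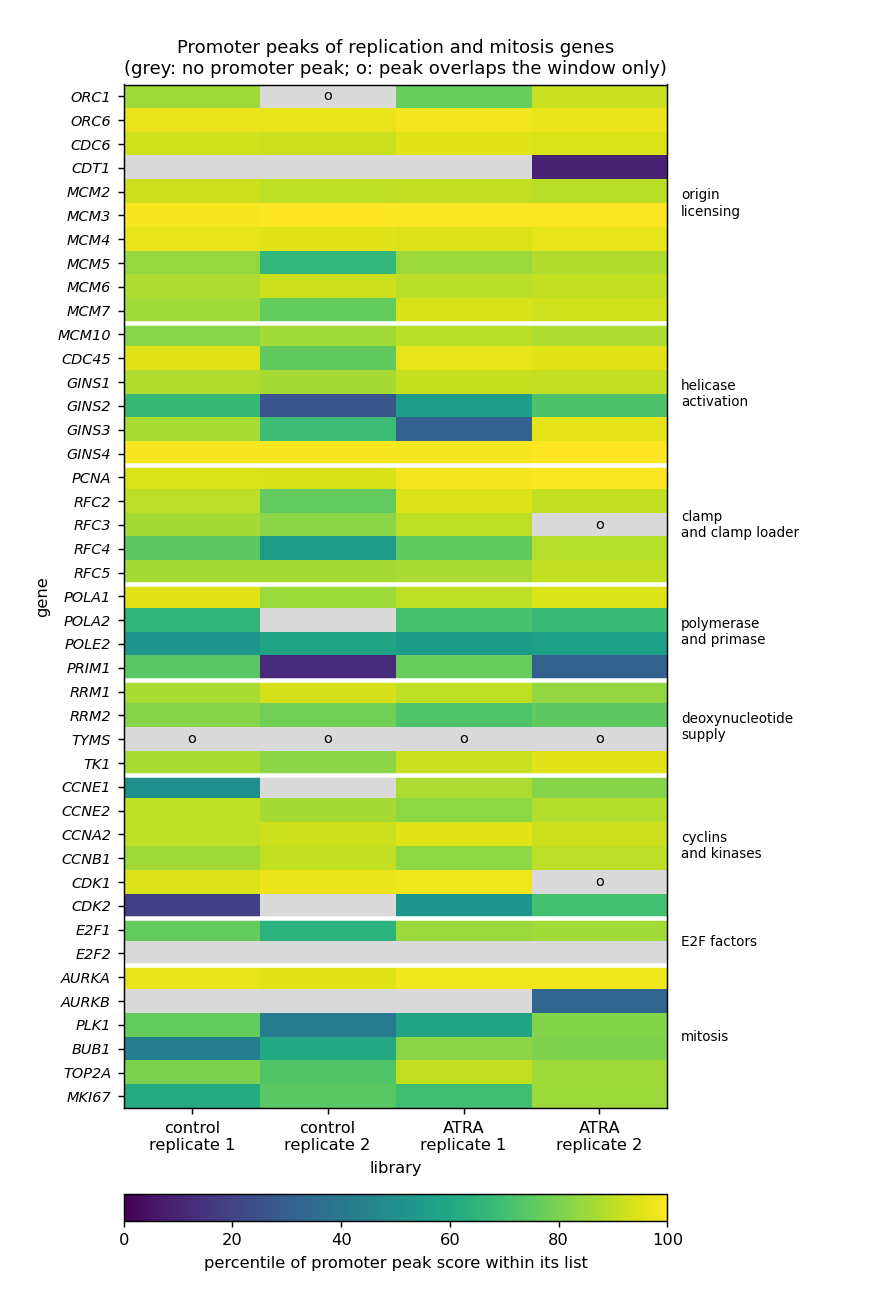
Percentile of the promoter peak score within its own list (colour, 0 to 100) for the 43 members (rows, by role) in the 4 libraries (columns). Grey marks no promoter peak and a small circle marks a peak that overlaps the promoter window with its centre outside it. Of the 43 rows, 33 are coloured in all 4 columns, and control replicate 2 has the most grey cells.

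The members without a peak in every library were examined one by one, and several owed it to the position of a wide peak. CDK1, the kinase that starts mitosis, had promoter peaks at percentiles 94.6 and 97.1 in control replicates 1 and 2 and 97.7 in ATRA replicate 1. In ATRA replicate 2 its peak at percentile 98.8 was 1377 bp wide (chr10:62537744-62539120), so its centre lay outside the window although the TSS was covered. RFC3, a clamp loader subunit, had the same pattern, with 86.5 and 82.5 in the control lists, 90.3 in ATRA replicate 1 and a peak of 1009 bp at 95.1 over the TSS in ATRA replicate 2. In ORC1, the largest subunit of the origin recognition complex, the displaced peak was that of control replicate 2, at 91.6 beside 85.8 in control replicate 1 and 76.9 and 91.7 in the ATRA lists. The promoters of CDK1, RFC3 and ORC1 were therefore covered by a peak in all 4 libraries.

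TYMS, which makes thymidylate for DNA synthesis, had its peak just downstream of the canonical TSS in every library. The peak began 170 to 465 bp past the TSS, and its percentile was 89.7 and 83.2 in the control lists and 68.5 and 80.7 in the ATRA lists. Both ATRA values lay below both control values. E2F2, an activating E2F factor, had no peak at its promoter, and the nearest region in all 4 libraries was centred 2179 bp upstream at chr1:23859701-23860107, with percentiles of 18.2 and 42.9 in the control lists and 40.6 and 62.0 in the ATRA lists.

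A further 3 members lacked a peak in control replicate 2 alone. CCNE1, the cyclin of entry into replication, had a percentile of 49.95 in control replicate 1 and of 87.9 and 81.7 in the ATRA lists. For CDK2, the partner kinase of cyclin E, the values were 18.5 in control replicate 1 and 52.7 and 70.2 in the ATRA lists. POLA2, the accessory subunit of the primase-polymerase complex, had 65.2 in control replicate 1 and 70.8 and 67.3 in the ATRA lists. In each of these genes both ATRA percentiles were above that of control replicate 1, and control replicate 2 had no peak to rank. The mean percentile was also higher in the ATRA lists for 6021 of 8080 other genes with a peak in all 4 libraries. CDT1, the licensing factor, and AURKB, the kinase of the chromosomal passenger complex, had a peak in ATRA replicate 2 alone, at percentile 9.44 (chr16:88870052-88870264) and 32.6 (chr17:8113862-8114184). That library had the longest list, and both peaks ranked in its lower part.

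**Figure D3:**
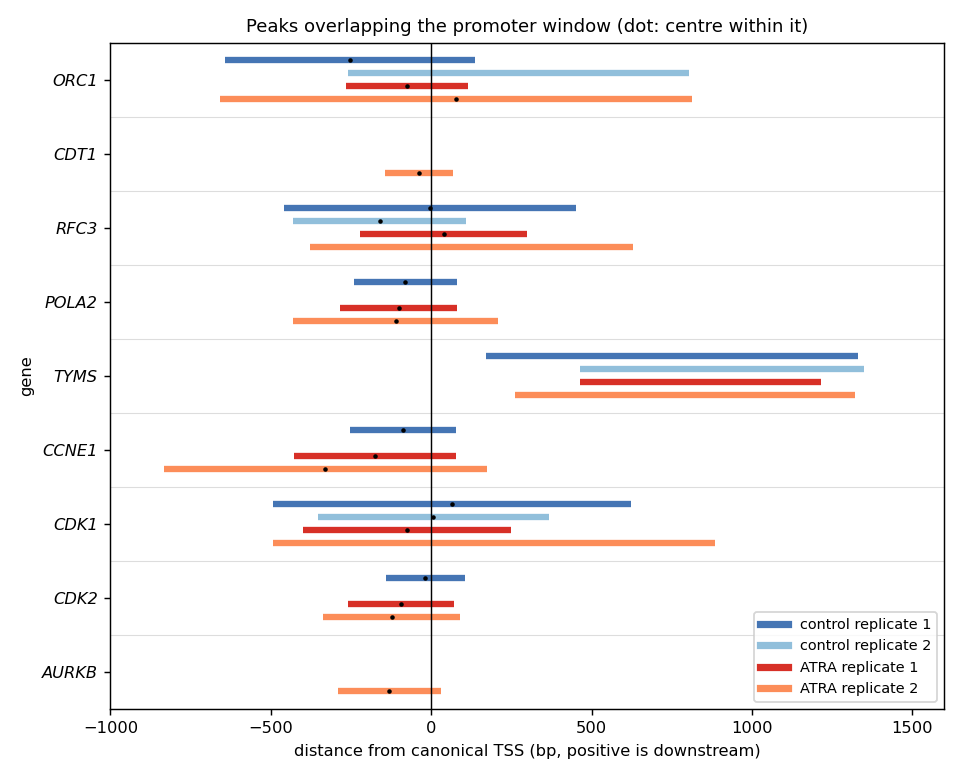
Peaks that overlap the promoter window of TYMS and of the 8 members whose peak centre lies in the window in some libraries only, drawn by distance from the canonical TSS (x axis, bp) for each library (colours), with a dot where the centre lies in the window. CDK1, RFC3 and ORC1 are covered by a peak in all 4 libraries, TYMS has its peaks downstream of the TSS, and CDT1 and AURKB have a single peak each.

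When any overlap with the window counted, 37 members had a promoter peak in all 4 libraries, 5 (CDT1, POLA2, CCNE1, CDK2 and AURKB) in some, and E2F2 in none, with 0 members in either one-group pattern. Leaving out ATRA replicate 1 put 2 members, CDK1 and RFC3, in the control-only pattern through the displaced centres described above (4.65% of members, beside 1.81% of other genes). The ATRA-only count became 2 without ATRA replicate 1 (CDT1 and AURKB, 4.65% beside 4.25%) and 4 without control replicate 1 (POLA2, CCNE1, CDK2 and ORC1, 9.3% beside 6.48%). Asking instead for a peak over the canonical TSS, a choice made after the data were seen, gave 31 members covered in all 4 libraries, 0 in the control-only pattern and 1, CCNE2, in the ATRA-only pattern. The shares of other genes were then 33.0%, 0.177% and 2.61%. For CCNE2 the pattern rested on a peak of 1223 bp in ATRA replicate 2 and a peak at percentile 2.5 in ATRA replicate 1.

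The peaks at these promoters ranked high in each list. For genes with several promoter peaks the highest was taken. Over the 33 members with a peak in all 4 libraries, the median percentile was 87.3 and 85.3 in control replicates 1 and 2 and 90.5 and 90.7 in ATRA replicates 1 and 2. The other 8080 genes with a peak in all 4 libraries had medians of 85.6 and 80.9 in the control lists and 87.7 and 90.1 in the ATRA lists. The mean percentile of the ATRA lists was above that of the control lists for 25 of the 33 members, with a median difference of 2.48 percentile points, and for 6021 of the 8080 other genes, with a median difference of 3.58. The shift was thus in the same direction in members and other genes, and the percentile alone does not separate a gene from the list it sits in.

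**Figure D4:**
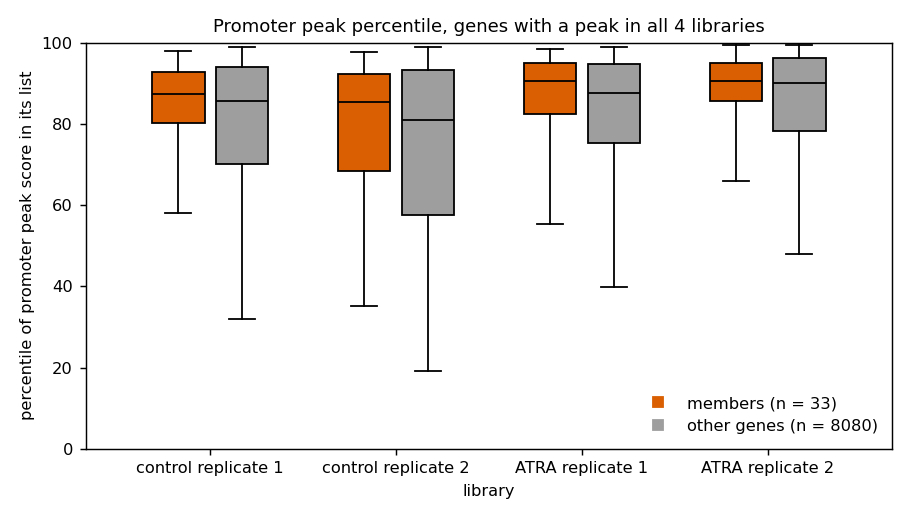
Percentile of the promoter peak score (y axis) in each library (x axis) for 33 members and 8080 other genes with a promoter peak in all 4 libraries. Boxes span the 25th to the 75th percentile of genes with the median as a line, and whiskers reach the 5th and 95th percentile of genes. Medians of the members run from 85.3 to 90.7 and those of the other genes from 80.9 to 90.1.

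To compare groups, scores were ranked in each list over the 8113 genes with a promoter peak in all 4 libraries and turned into normal scores, which have a mean of 0 and are in units of a standard deviation across genes. limma was fitted over all of these genes, with ATRA minus control as the difference. An exact permutation test over the 4 libraries cannot give p under 0.333, so the fit across genes was the only test. No member passed an adjusted p of 0.05, whereas 1 of 8113 genes (0.0123%) did. That gene was OXCT1, a ketone body enzyme, which is no member and is named only because it was the single call. Its normal scores were 1.33 and 1.55 in the control libraries and -2.20 and -2.00 in the ATRA libraries (difference -3.54, SE 0.29, limma adjusted p = 0.0359). Without ATRA replicate 1, without ATRA replicate 2 or with the replicate number as a block, 0 genes were lower, and without control replicate 1 or 2, 2 or 3 genes were higher. Each fit without a library leaves 1 library in a group, which is then assumed to vary like the other group. At an unadjusted p under 0.05 there were 768 genes, of which 1 was a member. The median difference of the 33 members was -0.03 (interquartile range -0.23 to 0.24), with 13 higher and 20 lower in ATRA-treated cells, and the median over all genes was -0.01.

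Both ATRA libraries lay above both control libraries for 6 members (PCNA, BUB1, MCM7, TK1, E2F1 and AURKA), which is 18.2% beside 19.9% of all genes. They lay below both control libraries for 7 members (RRM2, CCNE2, POLE2, CCNB1, MCM2, MCM4 and RFC5), 21.2% beside 21.0% of all genes. Both shares were near the background, so neither is a result about these genes. The members below are described because they were the most separated in each direction, or because they are the usual markers of their step of the cycle. The correlation of normal scores over genes was 0.859 between the ATRA libraries and 0.808 between the control libraries, and 0.744 to 0.817 between the groups, so the control libraries were no closer to each other than control replicate 1 was to ATRA replicate 1 (0.817).

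**Figure D5:**
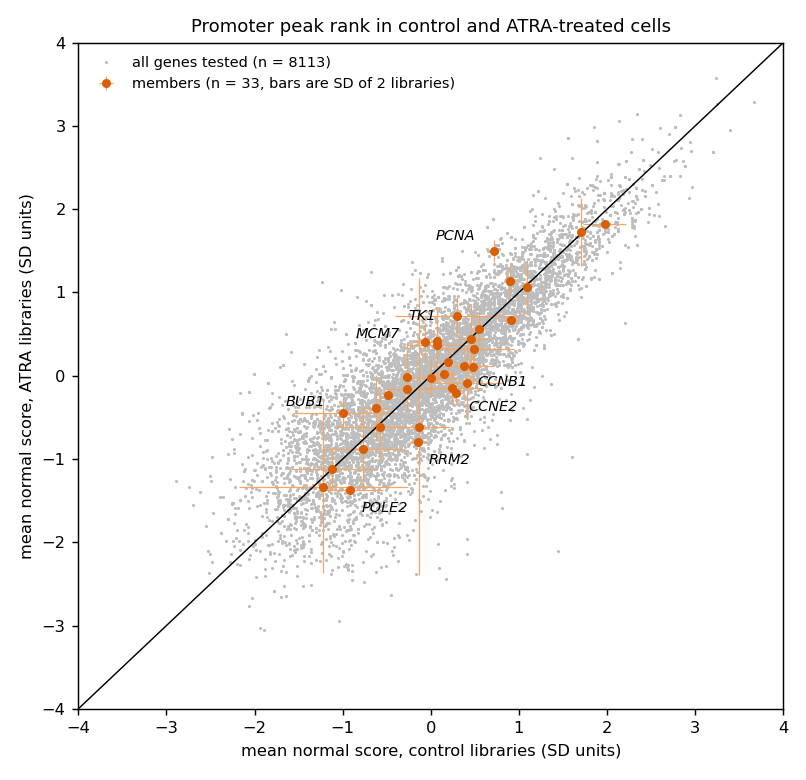
Mean normal score of the promoter peak (SD units) in the control libraries (x axis) and the ATRA libraries (y axis) for 8113 genes, with the 33 members in orange and bars for the SD of 2 libraries. Points on the line have the same mean in both groups. The members lie on both sides of it, from RRM2 at -0.65 to PCNA at 0.79.

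Among the origin licensing genes, 8 of 10 had a promoter peak in all 4 libraries and the median difference of normal scores was -0.10, with 3 higher and 5 lower. MCM2, a subunit of the replicative helicase, had percentiles of 92.4 and 90.5 in the control lists and 90.8 and 89.6 in the ATRA lists. These 4 values span 3 percentile points, and the difference of normal scores was -0.37 (SE 0.29, limma adjusted p = 0.715). CDC6, which loads the helicase, had 92.7 and 91.8 in the control lists and 95.1 and 94.3 in the ATRA lists, and its normal scores overlapped between the groups (0.02, SE 0.29, limma adjusted p = 0.987). MCM7, which shares a divergent promoter with AP4M1, had 86.0 and 76.4 in the control lists and 93.99 and 92.85 in the ATRA lists. Its ATRA values were the higher ones, with a difference of 0.48 (SE 0.29, limma adjusted p = 0.671). MCM3, another helicase subunit, had one of the strongest promoter peaks, at percentile 99.2 or above in every list.

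All 6 helicase activation genes had a promoter peak in all 4 libraries, and the normal scores of the groups overlapped for each. The mean percentile was higher in the ATRA lists for 5 of these 6 genes, and for 6021 of the 8080 other genes. GINS4 was at 98.5 or above in every list. GINS3 was the least repeatable, with 87.3 and 68.4 in the control lists and 31.1 and 96.0 in the ATRA lists, so its 2 ATRA libraries stood at the extremes. The peak of GINS1 ranked here belonged to an upstream TSS in every library. At the canonical TSS of GINS1 the percentile was 78.2 and 79.1 in the control lists and 55.3 and 78.9 in the ATRA lists.

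PCNA, the sliding clamp, had the largest positive difference of the 33 members tested. Its highest promoter peak stood at 94.2 and 94.1 in the control lists and 98.4 and 99.3 in the ATRA lists, and the difference of normal scores was 0.79 (SE 0.28, limma unadjusted p = 0.0256, adjusted p = 0.443). The control values were close together and both ATRA values were above them. In 3 of the 4 libraries, control replicate 2 being the exception, this peak lay over a second PCNA TSS upstream, at chr20:5106771-5107795 in ATRA replicate 1, where the gene CDS2 also starts. At the canonical PCNA TSS, the one whose sequence is printed above, the percentile was 87.2 and 94.1 in the control lists and 93.5 and 97.9 in the ATRA lists, and the groups overlapped. The clamp loader genes RFC2, RFC4 and RFC5 had differences of 0.30, 0.24 and -0.13. The groups overlapped for RFC2 and RFC4, and both ATRA libraries were below both control libraries for RFC5 (SE 0.28, limma adjusted p = 0.903).

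POLE2, a subunit of the leading strand polymerase, had percentiles of 52.4 and 58.5 in the control lists and 54.5 and 56.9 in the ATRA lists. The percentiles overlapped, but the normal scores, which are ranked among genes with a promoter peak in all 4 libraries, were lower in both ATRA libraries (-0.46, SE 0.31, limma adjusted p = 0.676). PRIM1, the catalytic primase subunit, had 74.1 and 12.3 in the control lists and 76.6 and 31.1 in the ATRA lists. The libraries numbered 2 were the low ones in both groups, and the groups overlapped.

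RRM2, the regulated subunit of ribonucleotide reductase, had the largest negative difference of the 33 members tested. Its highest promoter peak stood at 81.8 and 78.8 in the control lists and 72.6 and 75.3 in the ATRA lists. Both ATRA values were below both control values, and the difference of normal scores was -0.65 (SE 0.28, limma adjusted p = 0.532). This peak lay at a TSS upstream of the canonical one in all 4 libraries, at chr2:10260218-10261148 in ATRA replicate 1. At the canonical RRM2 TSS, downstream of the pair of CCAAT boxes printed above, the percentile was 80.2 and 77.5 in the control lists and 64.2 and 57.9 in the ATRA lists, so both ATRA libraries were the lower ones there too. TYMS was not among the 33 members tested. With any overlap of the window counted it was tested, and it then had the lowest limma adjusted p of the members (0.392). TK1, which salvages thymidine, had 86.7 and 82.5 in the control lists and 91.5 and 95.1 in the ATRA lists. Both ATRA values were higher, with a difference of 0.34 (SE 0.28, limma adjusted p = 0.727).

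The cyclins with a peak in all 4 libraries had differences from -0.50 to -0.02. CCNE2, the second cyclin E, had 90.6 and 86.6 in the control lists and 83.0 and 88.4 in the ATRA lists, a difference of -0.50 (SE 0.28, limma adjusted p = 0.648). The percentiles overlapped and the normal scores did not. At its canonical TSS neither control library had a peak, and the ATRA libraries had 2.5 and 88.4. The value of 88.4 belonged to the same highest peak, which was 1223 bp wide and reached over the TSS. The control peaks ended 274 and 256 bp upstream of the TSS. The peak of ATRA replicate 1 over the TSS ranked near the bottom of its list. CCNB1, the cyclin of mitotic entry, had 85.7 and 90.9 in the control lists and 83.1 and 90.1 in the ATRA lists, a difference of -0.38 (SE 0.31, limma adjusted p = 0.726). Replicate 1 was the lower library in both groups. CCNA2, the cyclin of replication and early mitosis, had 90.4 and 92.2 in the control lists and 95.2 and 91.9 in the ATRA lists, and its groups overlapped (-0.02, SE 0.33, limma adjusted p = 0.991).

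E2F1, the activating E2F factor whose own promoter holds a pair of E2F sites in the printed sequence, had 76.4 and 63.7 in the control lists and 84.8 and 86.3 in the ATRA lists. Both ATRA values were above both control values, and the difference of normal scores was 0.26 (SE 0.28, limma adjusted p = 0.802). In control replicate 2 the peak ended short of the canonical TSS.

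Of the 6 mitosis genes, 5 had a promoter peak in all 4 libraries. In all 5 the mean percentile was higher in the ATRA lists, as it was for 6021 of the 8080 other genes. The median difference of normal scores over these 5 mitosis genes was 0.24, with 3 higher and 2 lower. BUB1, a spindle checkpoint kinase, had 43.1 and 60.6 in the control lists and 82.4 and 80.6 in the ATRA lists. By percentile its ATRA libraries agreed closely while the control libraries were apart. The normal scores of BUB1 were -1.395 and -0.596 in the control libraries and -0.323 and -0.574 in the ATRA libraries. Control replicate 2 thus lay close to ATRA replicate 2, and the difference was 0.55 (SE 0.35, limma adjusted p = 0.673). PLK1, a kinase of mitotic entry and spindle assembly, had 76.5 and 41.0 in the control lists and 58.6 and 81.5 in the ATRA lists, and the ranges overlapped (-0.11, SE 0.37, limma adjusted p = 0.946). MKI67, the proliferation marker Ki-67, had 61.6 and 74.5 in the control lists and 69.5 and 85.4 in the ATRA lists. The ranges overlapped, and its difference was -0.03 (SE 0.37, limma adjusted p = 0.987). AURKA, the spindle pole kinase, had 96.1 and 95.1 in the control lists and 98.0 and 97.7 in the ATRA lists. Its ATRA values were the higher ones, with a difference of 0.24 (SE 0.29, limma adjusted p = 0.82).

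The signs of CDC6, CCNA2, PLK1 and MKI67 turned under at least 1 other setting of the processing. Of the 33 members, 9 had a highest promoter peak that missed the canonical TSS in at least 1 library, among them PCNA, RRM2, GINS1 and CCNE2. With peaks over the canonical TSS only, a choice also made after the data were seen, 31 members had a value in all 4 libraries and 22 were higher in the ATRA lists, with a median difference of 2.25 percentile points against 2.77 for 6548 other genes. A divergent gene started within 1 kb of the canonical TSS of 8 members (ORC1, ORC6, MCM4, MCM7, CDC45, TK1, CDK2 and AURKA), or 18.6%, and of 9.43% of other genes and 18.0% of other genes with a promoter peak in all 4 libraries. A peak there belongs to either gene of the pair.

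Peaks centred outside the promoter windows but within 10 kb of a TSS were merged into regions. The members had 54 such regions, near 31 of the 43 genes, of which 27 touched an exon, 20 lay in introns only and 7 were intergenic. For 13 of the 54 regions the nearest TSS was that of another gene. Others held wide peaks that overlap a promoter window with their centre outside it, as at CDK1, RFC3, ORC1, PCNA and TYMS. A peak was present in 32 and 32 of the 54 regions in control replicates 1 and 2, and in 29 and 43 in ATRA replicates 1 and 2. Of the 54 regions, 20 (37.0%) were found in all 4 libraries, beside 27.3% of the regions of other genes. A peak in both control libraries and neither ATRA library was found at 1 region (1.85%), beside 3.26% of the regions of other genes. The reverse was found at 3 regions (5.56%), beside 9.53%.

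The control-only region lay 3652 bp upstream of CDT1, between genes at chr16:88866338-88866753, with percentiles of 27.7 and 38.5 in the control lists. CDT1 also had an ATRA-only region, 8444 bp downstream of its TSS at chr16:88878224-88879058, with percentiles of 67.6 and 69.3 in the ATRA lists. That region overlapped coding and untranslated exons of APRT and lay 296 bp from an APRT TSS. The other ATRA-only regions were weaker or farther from the member. That of AURKA, at chr20:54975177-54975531 in an intron of CSTF1, had 23.9 and 61.5 in the ATRA lists, and that of AURKB, between genes at chr17:8103439-8103780, had 19.2 and 6.21. A region near CDK2 ranked highest of all, at 99.5 and 99.5 in the control lists and 99.8 and 99.7 in the ATRA lists, and it lay 205 bp from a TSS of RAB5B. The counts moved with the libraries used. Without control replicate 2 there were 6 control-only regions (11.5%, beside 9.08% of the regions of other genes), and without ATRA replicate 1, which leaves the longest list to stand for the group, there were 13 ATRA-only regions (24.1%, beside 29.2%).

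Other genes of the same pathways were described in the same way. Of all protein-coding genes outside the 43 members, 40.2% had a promoter peak in all 4 libraries, 0.632% were control-only and 2.23% were ATRA-only. In lists of 16 to 50 genes, counts of 0 or 1 are too small to set apart from those low shares. Of 36 other replication genes, 30 had a promoter peak in all 4 libraries, 0 were control-only and 1 was ATRA-only. That gene was RPA1, a subunit of the single-strand binding protein, with no peak in the control lists and 33.5 and 33.7 in the ATRA lists. Among 50 other mitosis and cell cycle genes, 47 had a promoter peak in all 4 libraries, 0 were control-only and MYBL2, a MuvB partner, was ATRA-only (6.96 and 36.7). Among 16 other E2F and pocket protein genes, 13 had a promoter peak in all 4 libraries, 0 were control-only and the pocket protein gene RBL1 was ATRA-only (51.5 and 76.0). By limma 0 of these genes passed the threshold, and 1, 6 and 1 genes of these lists had an unadjusted p under 0.05 (3.33%, 12.8% and 7.69%, beside 9.47% of all genes). Both ATRA libraries were below both control libraries for 20 of the 47 tested mitosis and cell cycle genes (42.6%), beside 21.0% of all genes, and above them for 9 (19.1%), beside 19.9%. The median difference of normal scores was -0.24 in that list, 0.05 in the other replication genes and -0.05 in the E2F and pocket protein genes, and the lists were not tested against other genes.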

How the data were processed

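The analysis started from 4 lists of ATAC-seq peaks (2 from ATRA-treated and 2 from control HL-60 cells), grouped by sample title. Per the labels and methods, the authors removed adapters, aligned reads to hg19 (Bowtie in the methods, Bowtie2 and cutadapt in the submitters' processing notes) and called peaks for each library with MACS2 at default settings. No Tn5 shift, duplicate or blacklist handling is given in the sources used here, so peak edges may be displaced. The deposited score, from 50.0 to 3100 with its scale not stated, was used for ranks and, as an alternative, on a log2 scale.

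TSS came from GENCODE 44 lifted to GRCh37, and coordinates are 1-based. Of the peaks, 0 lay on a chromosome missing from the reference and 0 past a chromosome end. Genes were named if they lacked a peak in some library, were among the 4 most separated members in each direction, had a one-group region, or were usual markers of their step. Members and lists were chosen with earlier results of these data known. The contrast used limma 3.58.1 in R 4.3.3, with Benjamini-Hochberg adjustment over 8113 genes. The fit was checked on simulated data with the same spread for every gene and large shifts. That check says nothing about power in these data, where spreads differ between genes. Other steps used Python 3.11.15, pandas 2.3.3, numpy 2.4.6, scipy 1.17.1, pysam 0.24.0, samtools 1.23.1 and matplotlib 3.10.9. Alternatives covered list length, peak assignment, TSS set, score filter, distance, scaling, replicate block and leaving out each library. Some marker genes of the lists are not reported here.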

Additional observations from a re-analysis of the deposited data

How the results depend on the processing

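Over the alternatives, the number of members with a promoter peak in every library ranged from 28 to 37, and 0 members passed limma's threshold. The median percentile difference of members ranged from 2.255 to 3.43 in lists of full length. With all lists cut to the same length it was 1.48, beside 1.67 for other genes. Above the median score of each list it was 4.71, beside 4.17 for other genes, a setting chosen after seeing the data. In both of these settings percentiles are those of the shortened list. The lowest adjusted p of a member ranged from 0.323 to 0.931. Control-only members numbered 0, and 0 to 2 when each library was left out in turn. That was up to 4.65% of members, beside 1.24% to 1.81% of other genes. ATRA-only members numbered 2 above the median score of each list (CCNE1 and CDK2, 4.65%, beside 3.03% of other genes). Over the canonical TSS there was 1 (2.33%, beside 2.61%). When each library was left out there were 0 to 4, up to 9.3%, beside 3.15% to 6.48% of other genes. Control-only regions of members numbered 2 with all lists cut to the same length (4.26%, beside 5.8% of the regions of other genes). They numbered 2 with basic transcripts (5.0%, beside 3.33%) and 2 with a stricter overlap between peak and region (3.7%, beside 3.24%). When each library was left out they numbered 2 to 6, or 3.7% to 11.5%, beside 4.3% to 10.8%. ATRA-only regions numbered 0 within 5 kb, beside 9.42% of the regions of other genes, and 6 with the stricter overlap (11.1%, beside 12.1%). When each library was left out they numbered 3 to 13, or 5.77% to 24.1%, beside 15.0% to 29.2%. Genes higher in ATRA-treated cells numbered 5 and genes lower 13 when genes with a promoter peak in at least 1 list were tested with missing peaks ranked lowest, and 0 to 3 higher and 0 to 1 lower when each library was left out. With any overlap of the window 0 genes were lower. A fit without 1 library assumes that the lone library of its group varies like the other group, so these counts say little about stability.

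Replicate numbers were not tied to a shared batch by the labels, and deviations of same-numbered libraries correlated at 0.202. With the replicate number as a block, 0 genes were lower and 0 higher by limma (1026 at an unadjusted p under 0.05), and 0 members passed. Of 154 values of 14 named members under alternatives, 144 kept their sign and 10 (of CDC6, CCNA2, PLK1 and MKI67) did not, and 0 passed the threshold. The share of members with an E2F site was 23.1% in 200 bp about the peak centre, against 3.9% of other promoter peaks. For the settings that moved a count, the cause was not tested. Unknown depth, and 2 libraries per group, limit what a missing peak or an unseparated rank can show.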
